A study of Mus musculus with 9 samples.

Results

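Interferon-induced genes were examined in RNAseq of whole mouse testis. The 49 genes were taken from a list of well-known targets of interferon and were sorted by what their proteins do into 11 sensors of foreign nucleic acid, 11 genes of signalling and protein modification, 18 effectors and 9 GTPases. They are 49 of the 32035 genes in the deposited tables, and each of them was found there.

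Interferons are secreted when a cell detects viral nucleic acid. They bind receptors that activate the kinases JAK1, JAK2 and TYK2, and these phosphorylate STAT proteins. A complex that holds STAT2 and IRF9 enters the nucleus through members of the karyopherin α family and binds the interferon-stimulated response element in target promoters. Many of these genes have a basal level without infection, and the products include RNA sensors, enzymes that degrade or edit RNA, membrane proteins that block viral entry and GTPases that attack vacuoles.

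All samples were testes of male C57Bl6/N mice aged 15 weeks, with 3 samples in each of 3 genotypes. The first group was wild type (WT). In the second, Kpna6 ΔIBB/ΔIBB, exon 2 of Kpna6 (importin α7) is deleted, and a shortened mRNA yields a truncated karyopherin without the domain that binds karyopherin β. In the third, Kpna6-/-, a gene trap sits in intron 1, and the labels describe loss of the protein, but the study's own account is that a testis-specific alternative exon lets germ cells make full-length protein. According to the study, Kpna6 ΔIBB/ΔIBB males are sterile and Kpna6-/- males are fertile. Both alleles are carried in the whole body, and both lines were compared with the same WT samples, so the comparisons with WT are not independent of each other. Nothing in the labels says that the samples of a group came from separate animals, so p-values measure only the spread between these samples, which may be technical.

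Counts assigned to genes ran from 24859751 to 31484692 per sample. Kpna6 itself was measured at 201, 325 and 334 CPM (normalized counts, adjusted for the depth of each sample) in WT, at 81.2, 85.3 and 81.8 in Kpna6 ΔIBB/ΔIBB and at 247, 249 and 262 in Kpna6-/-. It was lower in Kpna6 ΔIBB/ΔIBB than in WT (log2 fold change -1.79 ± 0.15 SE, adjusted p = 1.94e-05) and was not called in Kpna6-/- (-0.18 ± 0.14, adjusted p = 0.586). Here and below, tests are edgeR's quasi-likelihood test with adjustment over all genes tested, a gene is called at an adjusted p below 0.05, and n = 3 per group. Whole testis is a mixture, so fewer cells of a type and less RNA per cell cannot be told apart. In Kpna6 ΔIBB/ΔIBB, 12 of 12 Sertoli cell markers were called higher than in WT, with summed levels of 1002 to 1087 TPM (a level per transcript length, scaled to the same total in every sample) in WT, 1627 to 1927 in Kpna6 ΔIBB/ΔIBB and 1203 to 1288 in Kpna6-/-. In the same comparison 7 of 8 round spermatid markers and 8 of 8 elongating spermatid markers were called lower. Peritubular myoid and endothelial markers summed to 78.5 to 87.2 TPM in WT and 111 to 123 in Kpna6 ΔIBB/ΔIBB. Of these 10 markers, 3 were called higher and 2 lower, the endothelial genes Vwf and Flt1. Spermatogonium markers summed to 113 to 127 and 149 to 171, with 3 of 8 called higher and 1, Gfra1, lower. Of 6 blood markers 4 were called lower and 1, Alas2, higher. Vwf, Flt1, Gfra1 and Alas2 were named after their values were seen. No marker of these lists was at 0. Over all genes tested 17.7% were called higher and 18.9% lower. The study counted fewer Sertoli cells per tubule in adults of both mutant lines, a measure unlike a share of the RNA of whole testis. Its quantitative PCR of adult testes, scaled to Gapdh, found no significant difference for Rhox5, Wt1, clusterin (Clu), Gata1 and Cldn11, which are among these Sertoli cell markers. Its staining found no Kpna6 in Sertoli cells of Kpna6-/- mice. The part of these marker shifts in the results below was not tested.

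Kpna6 ΔIBB/ΔIBB replicate 3 stood apart in markers of epididymis and seminal vesicle, tissue that lies against the testis. These 9 markers summed to 187 TPM in that sample, 33.8 and 34.6 in the other Kpna6 ΔIBB/ΔIBB samples, 10.9 to 13.8 in WT and 18.3 to 32.7 in Kpna6-/-. Lcn5 was at 0 in every group and Spint4 in WT.

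The most abundant members in WT testis were Isg20 at 102 TPM, an exonuclease that degrades RNA, and Ifi27 at 53.9 TPM, a small membrane protein of mitochondria and nuclear envelope. They were followed by Dhx58 at 35.3 TPM, which encodes the helicase LGP2, Ifitm2 at 20.2 TPM, a membrane protein that hinders viral fusion, and Ddx58 at 19.3 TPM, which encodes the sensor RIG-I. The members with the lowest levels were these. Rsad2, which encodes viperin, stood at 0.16 TPM, Ifit3b at 0.16, Oas1a at 0.18 and Ifit1 at 0.25. In all, 31 of the 49 members reached 1 TPM in WT and 8 reached 10 TPM, against 16602 and 8974 of all 32035 genes. The median member stood at 1.60 TPM and the median gene at 1.23 TPM.

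**Figure D1:**
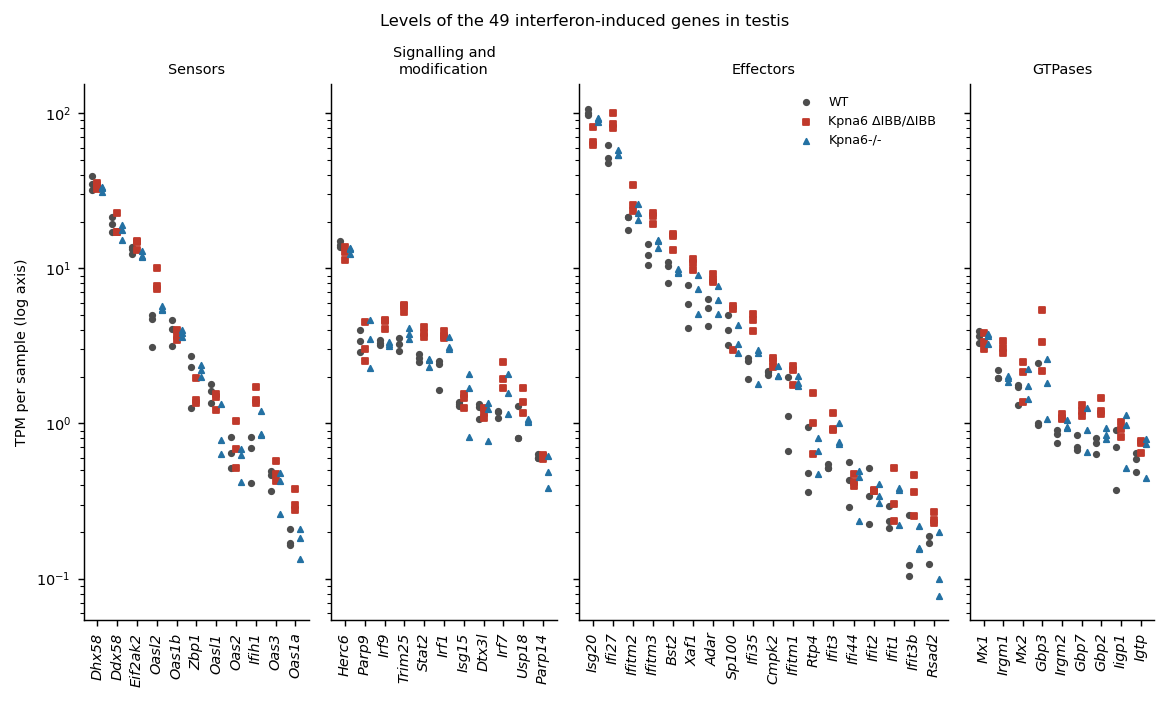
TPM of each of the 49 members in each of the 9 samples, on a log axis, by role class and ordered by the WT mean; circles are WT, squares Kpna6 ΔIBB/ΔIBB and triangles Kpna6-/-. Isg20, Ifi27, Dhx58, Ifitm2 and Ddx58 lead in WT, and Isg20 is the member whose squares lie below its circles at the top of the effectors.

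The interferons themselves were close to undetectable. Of 21 interferon genes looked for, 11 had a count of 0 in every one of the 9 samples, Ifnb1 and Ifng among them, and the other 10 did not pass the filter on low counts in any comparison. The highest value of any interferon gene in any sample was 0.771 TPM, for Ifnab. Interferon genes summed to between 1.01 and 1.48 TPM in WT, 1.05 and 1.75 in Kpna6 ΔIBB/ΔIBB and 1.04 and 2.29 in Kpna6-/-, ranges that overlap. A difference in interferon mRNA between genotypes was therefore not detectable at this depth.

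The comparison of Kpna6 ΔIBB/ΔIBB with WT asks how the levels of these genes differ between testes without full-length Kpna6 and WT testes. Among the 49 members, all of which were tested, 16 were called higher, led by the RNA editor Adar, and 2 were called lower, Isg20 and Herc6. Over all genes tested 17.7% were called higher and 18.9% lower, so calls were common in this comparison. The median log2 fold change was 0.34 over the members and 0.01 over all genes tested, but 0.19 and 0.10 under limma on log2(TPM + 1), and 73.5% of the members lay above 0 against 51.3% of all genes tested. Folds of the members called higher ran from 1.34 to 2.29. In CPM, the 3 Kpna6 ΔIBB/ΔIBB values and the 3 WT values did not overlap for any of the 18 called members. In TPM they did not overlap for 16, the exceptions being Gbp3 and Herc6. The calls rest on these same samples, so this separation adds no support of its own. Its share over all genes tested was not computed, and members that were not called, such as Dhx58, Irf7, Irf9 and Mx1, were apart in CPM too. With 3 samples in each group an exact permutation test of a single gene cannot go below p = 0.1. Without Kpna6 ΔIBB/ΔIBB replicate 3, which stood apart in epididymal markers, 14 members were called higher and 2 lower against WT. In that fit 3085 of all 18988 genes tested were called higher and 3285 lower. Of the 18 member calls of the full fit, 15 were shared. The calls lost were those of Irf1, Ifit3 and Bst2.

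**Figure D2:**
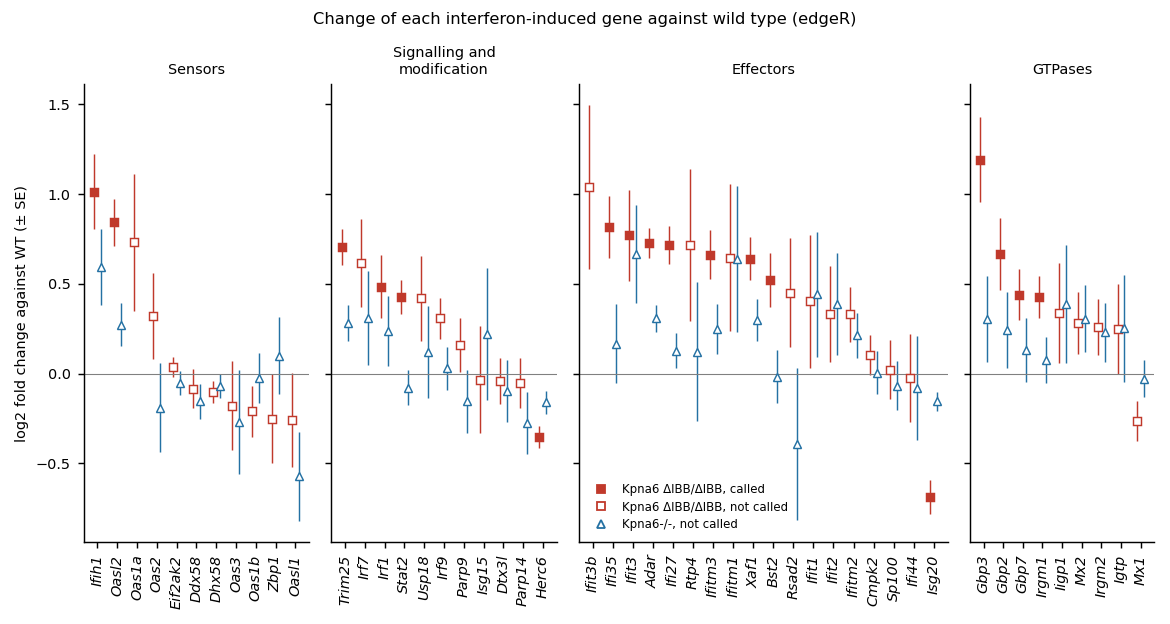
log2 fold change against WT with its SE for each member by role class, in Kpna6 ΔIBB/ΔIBB (squares) and Kpna6-/- (triangles); filled symbols were called at an adjusted p below 0.05 by edgeR and open symbols were not. The 16 filled squares above 0 are spread over the 4 classes, Isg20 and Herc6 are the 2 filled squares below 0, and no triangle is filled. Oas1a and Ifit3b have no triangle because they were not tested there.

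Sensors were the class with the fewest calls, 2 higher and 0 lower of 11, with a median log2 fold change of -0.08. The 18.2% called higher was near the 17.7% of all genes tested, of which 18.9% were called lower. Oasl2, an oligoadenylate synthetase-like protein, was measured at 4.79, 4.28 and 5.13 CPM in WT, at 8.35, 9.72 and 7.30 in Kpna6 ΔIBB/ΔIBB and at 5.91, 5.52 and 5.73 in Kpna6-/-. All Kpna6 ΔIBB/ΔIBB samples lay above every other sample, and the change from WT was 0.84 ± 0.13 (SE) on the log2 scale (adjusted p = 0.000654). Ifih1 encodes MDA5, the cytoplasmic sensor of long double-stranded RNA. It stood at 2.63, 1.42 and 2.48 CPM in WT, at 4.37, 4.69 and 4.06 in Kpna6 ΔIBB/ΔIBB and at 3.15, 3.57 and 3.11 in Kpna6-/-, an order without overlap between genotypes. Its level rose 2.02-fold in Kpna6 ΔIBB/ΔIBB (log2 fold change 1.01 ± 0.21, adjusted p = 0.00332).

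The sensors with the highest levels were not called. Dhx58 stood at 44.0, 49.6 and 43.8 CPM in WT, 42.5, 43.2 and 42.1 in Kpna6 ΔIBB/ΔIBB and 46.6, 43.8 and 41.0 in Kpna6-/-, and its change in Kpna6 ΔIBB/ΔIBB was -0.10 ± 0.06 (adjusted p = 0.212). For Ddx58 the change was -0.08 ± 0.11 and for Eif2ak2, the kinase PKR that stops translation, it was 0.04 ± 0.06. Oas1b, annotated as a polymorphic pseudogene in this strain's reference, stood at 4.18, 5.37 and 5.61 CPM in WT, 4.17, 4.72 and 4.15 in Kpna6 ΔIBB/ΔIBB and 4.85, 4.74 and 5.32 in Kpna6-/-, with overlapping groups (adjusted p = 0.280 against WT). The remaining sensors, Oas1a, Oas2, Oas3, Oasl1 and Zbp1, a sensor of left-handed nucleic acid, had changes from -0.26 to 0.73 with adjusted p from 0.160 to 0.613. Oas1a rests on 5 to 15 estimated counts per sample and is 97.6% identical to Oas1g over 1861 bases, so its reads may be divided between both genes.

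In signalling and modification 3 of 11 members were called higher (27.3%, against 17.7% of all genes tested) and 1 lower (9.09%, against 18.9%). Trim25, the ubiquitin ligase that activates RIG-I, was at 14.5, 13.1 and 10.99 CPM in WT, 22.2, 21.1 and 19.6 in Kpna6 ΔIBB/ΔIBB and 16.9, 14.9 and 15.2 in Kpna6-/-. Its log2 fold change in Kpna6 ΔIBB/ΔIBB was 0.71 ± 0.10 (adjusted p = 0.00035). Stat2, a transcription factor activated after interferon binds its receptor, was at 9.78, 8.73 and 8.88 CPM in WT, 12.1, 13.1 and 11.5 in Kpna6 ΔIBB/ΔIBB and 8.01, 8.83 and 9.13 in Kpna6-/-. Stat2 rose by 0.43 ± 0.09 in Kpna6 ΔIBB/ΔIBB, while WT and Kpna6-/- overlapped. Irf1, a transcription factor induced by interferon, was called at 0.49 ± 0.18 with an adjusted p of 0.0497, just inside the threshold. Its call was lost in 5 of the 6 fits that left out 1 sample, all but the one without WT replicate 2.

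Irf7 and Irf9, the other transcription factors of the class, fell just outside the threshold. Irf7 stood at 1.45, 0.92 and 0.95 CPM in WT, 1.49, 1.95 and 1.64 in Kpna6 ΔIBB/ΔIBB and 1.49, 1.53 and 1.11 in Kpna6-/- (0.62 ± 0.25 against WT, adjusted p = 0.0703). Irf9 stood at 6.34, 6.26 and 5.21 CPM in WT, 7.77, 6.86 and 7.39 in Kpna6 ΔIBB/ΔIBB and 5.83, 5.91 and 6.51 in Kpna6-/- (0.31 ± 0.12, adjusted p = 0.0581). For both genes the Kpna6 ΔIBB/ΔIBB samples lay above the WT samples without overlap. The Irf9 value turned to -0.11 when its counts were summed with those of the 10 genes that match it over 101 to 180 bases.

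ISG15 is a small ubiquitin-like protein that HERC6 attaches to other proteins in the mouse and USP18 removes. Isg15 stood at 0.54, 0.56 and 0.51 CPM in WT, 0.46, 0.53 and 0.57 in Kpna6 ΔIBB/ΔIBB and 0.69, 0.84 and 0.33 in Kpna6-/-, which is 9 to 26 estimated counts per sample. The groups overlapped and the change in Kpna6 ΔIBB/ΔIBB was -0.03 ± 0.30 (adjusted p = 0.946). Herc6, the most abundant gene of the class, stood at 43.1, 47.4 and 46.6 CPM in WT, 35.2, 33.9 and 38.0 in Kpna6 ΔIBB/ΔIBB and 37.6, 43.1 and 42.1 in Kpna6-/-. It fell by 0.35 on the log2 scale in Kpna6 ΔIBB/ΔIBB (SE 0.06, adjusted p = 0.00137), a call that was lost under limma on TPM and when near-identical genes were summed. Usp18 was at 0.42 ± 0.24 without a call. Of the other enzymes of this system, which are no members and were named after their values were seen, Uba7, the activating enzyme, was called higher (0.78 ± 0.18, adjusted p = 0.00689) and Ube2l6, the conjugating enzyme, was not called (0.03 ± 0.10). Parp9, Dtx3l and Parp14, which encode ADP-ribosyltransferases and a ubiquitin ligase that acts with PARP9, had changes from -0.05 to 0.16 and were not called.

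**Figure D3:**
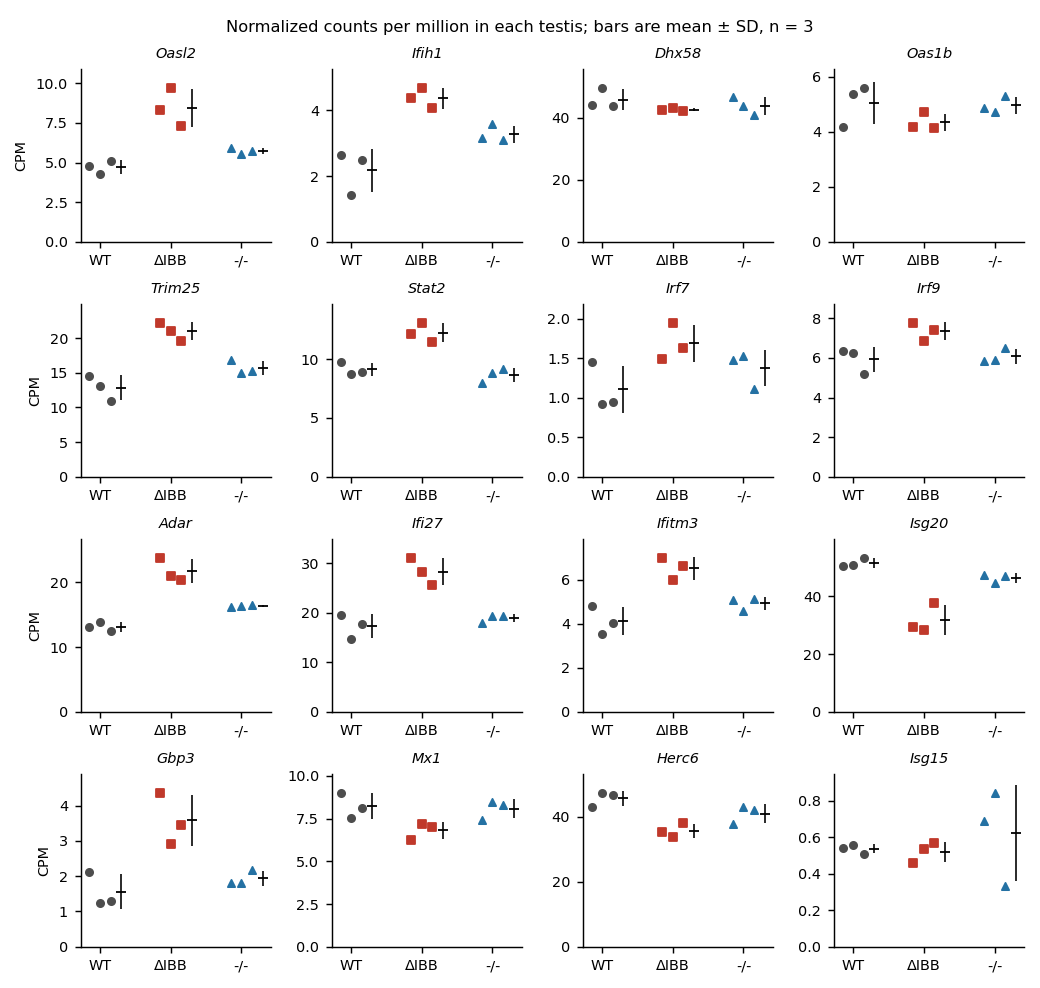
Normalized CPM of 16 members in each testis (points) with the mean ± SD of 3 samples beside them, for WT, Kpna6 ΔIBB/ΔIBB (ΔIBB) and Kpna6-/- (-/-); every axis starts at 0. Oasl2, Ifih1, Trim25, Stat2, Adar, Ifi27, Ifitm3 and Gbp3 are higher in each ΔIBB sample than in every WT sample, Isg20 and Herc6 are lower, and Isg15, with 9 to 26 counts per sample, overlaps between the groups.

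Effectors had 7 members called higher and 1 lower of 18 and the highest class median, 0.58. These calls were 38.9% and 5.56%, against 17.7% and 18.9% of all genes tested. Adar, which turns adenosine into inosine in double-stranded RNA, had the smallest adjusted p of all members. It stood at 13.1, 14.0 and 12.5 CPM in WT, 23.8, 21.1 and 20.4 in Kpna6 ΔIBB/ΔIBB and 16.2, 16.3 and 16.5 in Kpna6-/-, so that no genotype overlapped another. The change in Kpna6 ΔIBB/ΔIBB was 1.66-fold (log2 fold change 0.73 ± 0.08, adjusted p = 9.85e-05). Adar overlaps Chrnb2, which lies on the opposite strand, over 1014 bases of transcript, and since the counting is not stated to use strand, reads there cannot be told apart.

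Isg20 moved the other way. It stood at 50.5, 50.7 and 53.3 CPM in WT, 29.5, 28.4 and 37.8 in Kpna6 ΔIBB/ΔIBB and 47.5, 44.4 and 46.97 in Kpna6-/-. Every Kpna6 ΔIBB/ΔIBB sample lay below every sample of the other genotypes, and Isg20 fell by 0.69 on the log2 scale against WT (SE 0.09, adjusted p = 0.000259). Its most abundant transcripts, which were not tested singly, had lower means too, with Isg20-202 at 50.3 TPM in WT and 34.6 in Kpna6 ΔIBB/ΔIBB and Isg20-204 at 25.05 and 16.04 (means of 3 samples).

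Ifi27 stood at 19.5, 14.7 and 17.6 CPM in WT, 31.1, 28.2 and 25.5 in Kpna6 ΔIBB/ΔIBB and 17.9, 19.4 and 19.3 in Kpna6-/-, a rise of 0.72 ± 0.11 in Kpna6 ΔIBB/ΔIBB (adjusted p = 0.000424). In WT 36.7% of its TPM was assigned to Ifi27-209, a transcript annotated with a retained intron. Xaf1, a pro-apoptotic partner of the caspase inhibitor XIAP, stood at 5.36, 4.55 and 5.10 CPM in WT, 8.62, 7.64 and 7.08 in Kpna6 ΔIBB/ΔIBB and 5.94, 6.20 and 6.32 in Kpna6-/-. It rose by 0.64 ± 0.12 in Kpna6 ΔIBB/ΔIBB, a value that turned to -0.13 when its counts were summed with the 27 genes that match it at 95% identity over at least 100 bases through matches of at most 197 bases.

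Ifitm3, which hinders the fusion of viral and host membranes, stood at 4.82, 3.56 and 4.04 CPM in WT, 7.01, 5.98 and 6.64 in Kpna6 ΔIBB/ΔIBB and 5.07, 4.58 and 5.14 in Kpna6-/- (0.66 ± 0.14 in Kpna6 ΔIBB/ΔIBB, adjusted p = 0.00344). Its neighbours Ifitm1 and Ifitm2 were not called, at 0.65 ± 0.41 and 0.33 ± 0.15. Bst2, or tetherin, which holds budding virions at the cell surface, stood at 4.25, 3.29 and 4.40 CPM in WT, 6.17, 4.88 and 6.04 in Kpna6 ΔIBB/ΔIBB and 3.91, 3.80 and 4.10 in Kpna6-/- (0.52 ± 0.15, adjusted p = 0.0198). The Bst2 call was lost without WT replicate 2, Kpna6 ΔIBB/ΔIBB replicate 1 or Kpna6 ΔIBB/ΔIBB replicate 3.

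Ifi35, a protein that binds the adaptor NMI, stood at 2.23, 1.68 and 2.08 CPM in WT, 3.91, 3.52 and 3.08 in Kpna6 ΔIBB/ΔIBB and 1.59, 2.60 and 2.51 in Kpna6-/- (0.82 ± 0.17, adjusted p = 0.00394). In the Ifit family, whose proteins bind viral RNA ends, Ifit3 was called at 0.77 ± 0.25 (adjusted p = 0.035), but the call did not survive the removal of any 1 of the 6 samples. Ifit3 is 97.8% identical to Ifit3b over 1700 bases. Ifit1, Ifit2 and Ifit3b had changes of 0.40, 0.33 and 1.04 without a call. The other effectors, Ifi44, Rsad2, Cmpk2, Rtp4 and Sp100, had changes from -0.02 to 0.72 with adjusted p from 0.214 to 0.949.

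The GTPases had 4 members called higher and 0 lower of 9, with a median of 0.34. The share called higher was 44.4%, against 17.7% of all genes tested, of which 18.9% were called lower. The largest change of any called member was in Gbp3, a guanylate-binding protein that coats pathogen vacuoles. Gbp3 stood at 2.13, 1.25 and 1.31 CPM in WT, 4.37, 2.93 and 3.46 in Kpna6 ΔIBB/ΔIBB and 1.81, 1.82 and 2.18 in Kpna6-/-. It rose 2.29-fold (1.19 ± 0.24, adjusted p = 0.00258) with no overlap between Kpna6 ΔIBB/ΔIBB and either other genotype in CPM. The TPM values, which depend on the transcripts to which the reads were assigned, did overlap, and limma on TPM did not call it. Gbp2 (0.66 ± 0.20, adjusted p = 0.0236), Gbp7 (0.44 ± 0.14, adjusted p = 0.0333) and Irgm1 (0.43 ± 0.12, adjusted p = 0.0163) were also called. Each of these calls was lost in some of the fits without 1 sample, in 3 of 6 for Gbp2, 4 of 6 for Gbp7 and 2 of 6 for Irgm1, WT replicate 2 being common to them. Gbp2, Gbp3 and Gbp7 lie in 1 cluster on chromosome 3.

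The Mx genes encode dynamin-like GTPases against viral ribonucleoproteins, and their alleles in many laboratory strains are defective. In WT 82.4% of the TPM of Mx1 lay on Mx1-203, which is annotated as a target of nonsense-mediated decay, and Mx2 is annotated as a polymorphic pseudogene. Mx1 stood at 9.01, 7.51 and 8.12 CPM in WT, 6.24, 7.20 and 6.99 in Kpna6 ΔIBB/ΔIBB and 7.43, 8.44 and 8.32 in Kpna6-/-, lower in each Kpna6 ΔIBB/ΔIBB sample than in WT but not called (-0.26 ± 0.11, adjusted p = 0.0859). Mx2 stood at 1.79, 1.81 and 2.22 CPM in WT, 2.26, 2.52 and 2.27 in Kpna6 ΔIBB/ΔIBB and 2.72, 2.40 and 2.07 in Kpna6-/- and was not called (0.28 ± 0.18, adjusted p = 0.234). Mx1 and Mx2 are 96.1% identical over 646 bases. Igtp, Irgm2 and Iigp1 had changes of 0.25, 0.26 and 0.34 without a call, and Igtp and Irgm2 overlap on the same strand of chromosome 11.

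Summed TPM was also read per class. TPM is not corrected for composition, and genes at large lay higher on its scale in Kpna6 ΔIBB/ΔIBB. The median log2 fold change of all genes against WT was 0.10 under limma on log2(TPM + 1). It was 0.12 on log2(TPM + 0.1) and 0.01 in edgeR. The sums below include that general shift. Signalling and modification summed to between 34.4 and 34.6 TPM in WT and between 38.8 and 42.5 in Kpna6 ΔIBB/ΔIBB, and the GTPases to between 11.4 and 13.5 in WT and between 16.2 and 18.9 in Kpna6 ΔIBB/ΔIBB. Effectors summed to 204 to 233 TPM in WT and 243 to 276 in Kpna6 ΔIBB/ΔIBB, the fall of Isg20 included. For the sensors, which are dominated by Dhx58, Ddx58 and Eif2ak2, the ranges of 80.5 to 84.0 in WT and 79.7 to 88.6 in Kpna6 ΔIBB/ΔIBB overlapped. In Kpna6-/- the sums were 74.7 to 78.8 TPM for sensors, 34.9 to 35.5 for signalling and modification, 218 to 224 for effectors and 12.8 to 13.9 for GTPases.

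**Figure D4:**
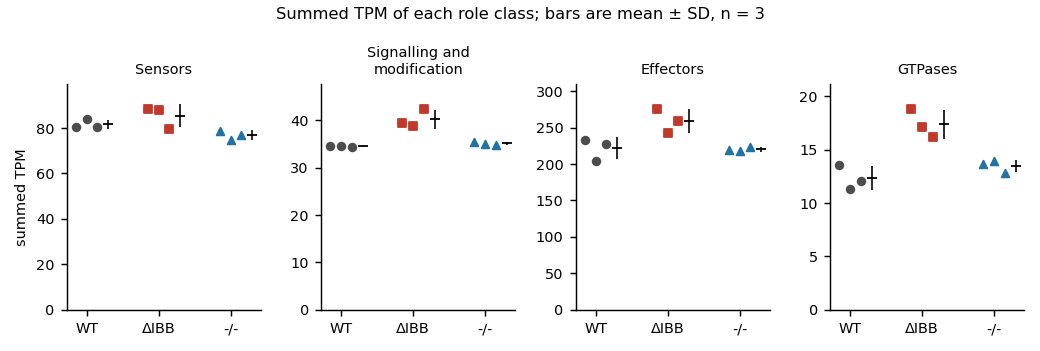
Summed TPM of the members of each role class in each testis (points) with mean ± SD of 3 samples, for WT, Kpna6 ΔIBB/ΔIBB (ΔIBB) and Kpna6-/- (-/-). The sums are not corrected for the general shift of genes on the TPM scale. Signalling and modification, effectors and GTPases lie higher in every ΔIBB sample than in every WT sample, and for the sensors the ΔIBB range of 79.7 to 88.6 TPM contains the WT range.

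Adar encodes a long, interferon-inducible protein form and a short constitutive one, so its transcripts were read separately. The long form (1152 and 1178 residues, Adar-201 and Adar-203) summed to 1.58, 0.93 and 1.17 TPM in WT, 2.54, 2.49 and 2.12 in Kpna6 ΔIBB/ΔIBB and 1.56, 1.55 and 1.86 in Kpna6-/-. Every Kpna6 ΔIBB/ΔIBB sample was above every other sample. The short form (930 residues, Adar-202) stood at 1.23, 1.73 and 1.55 TPM in WT, 3.19, 1.77 and 2.13 in Kpna6 ΔIBB/ΔIBB and 1.48, 1.52 and 1.32 in Kpna6-/-. It too was higher in every Kpna6 ΔIBB/ΔIBB sample, by a narrow margin in replicate 2. The other coding transcripts (634 and 660 residues, Adar-205 and Adar-204) summed to 0, 0.61 and 0.34 TPM in WT, 0.66, 1.42 and 0.92 in Kpna6 ΔIBB/ΔIBB and 0.67, 0.73 and 0.56 in Kpna6-/-. Here too every Kpna6 ΔIBB/ΔIBB sample was above every WT sample. The forms share most of their sequence, so the split between them is an estimate, and no test was run on it.

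**Figure D5:**
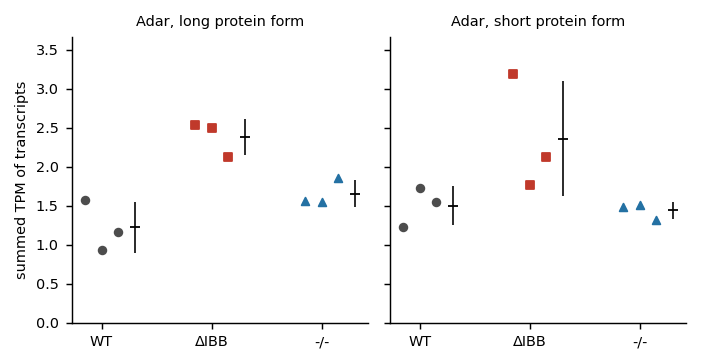
TPM of the Adar transcripts that encode the long protein form (Adar-201 and Adar-203, summed) and the short form (Adar-202) in each testis (points) with mean ± SD of 3 samples, on a shared axis that starts at 0. The ΔIBB samples lie at 2.12 to 2.54 TPM for the long form and at 1.77 to 3.19 TPM for the short form, above all WT samples in both panels.

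Promoters of the members were read for the 2 elements through which interferon acts, as a description of the sequence. RefSeq promoter windows (GRCm38.p6), 250 bases before to 50 bases after each start site, were matched by symbol for 37 of the 49 members. The core of the interferon-stimulated response element, GAAANNGAAA on either strand, was in a window of 20 of these 37 members (54.1%) and of 1079 of 27025 genes with a window (3.99%). The gamma-activated site, TTCNNNGAA, was in 12 of 37 (32.4%) and 2582 of 27025 (9.55%). By class the response element was in 5 of 7 sensors, 2 of 8 genes of signalling and modification, 7 of 16 effectors and 6 of 6 GTPases. It was in 9 of the 15 members called higher that had a window, in 0 of the 2 called lower and in 11 of the 20 not called. A match is not a bound site. Below are the 4 called members with the smallest adjusted p whose window held the response element, each as 30 bases around the match, 5′ to 3′ on the gene's strand, with the match in capitals. TTTC at both ends marks the element on the opposite strand.
Gbp3: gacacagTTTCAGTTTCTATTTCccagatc
Ifih1: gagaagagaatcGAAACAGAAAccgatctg
Ifitm3: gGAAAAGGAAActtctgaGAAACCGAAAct
Stat2: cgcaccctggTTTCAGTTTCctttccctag
The Gbp3 stretch (chr3:142559992-142560021, plus strand) holds 2 overlapping matches at positions -45 to -30 from the start site, and the Stat2 stretch (chr10:128270266-128270295, plus strand) holds 1 at -222 to -213. The Ifih1 stretch (chr2:62646206-62646235, minus strand) holds 1 match at 33 to 42 bases into the transcript, and the Ifitm3 stretch (chr7:141010714-141010743, minus strand) holds 2 between bases 3 and 29. Of the members with a smaller adjusted p than Stat2, Adar, Isg20, Trim25, Oasl2, Herc6, Xaf1 and Ifi35 had no response element in their windows. Adar, Isg20 and Ifi35 held the gamma-activated site, and Ifi27 had no window.

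The comparison of Kpna6-/- with WT asks whether the gene trap alone, which spares full-length protein in germ cells, is accompanied by a change. Of the 47 members tested, 0 were called by edgeR, where over all genes tested 0.889% were called higher and 0.712% lower. DESeq2, which gave an adjusted p to 39 members, and limma on TPM also called 0. By edgeR 9 of the 47 members had an unadjusted p below 0.05, as did 2778 of all 18681 genes tested. The median log2 fold change was 0.12 over the members and 0.00 over all genes tested, and it was 0.05 without WT replicate 2 or without Kpna6-/- replicate 2. Adar came closest, at 0.31 ± 0.08 with an adjusted p of 0.0652, and it was called only without the filter on low counts (adjusted p = 0.0494). The other members with an unadjusted p below 0.05 were Trim25 at 0.28 ± 0.10, Ifih1 at 0.59 ± 0.21, Oasl2 at 0.27 ± 0.12, Xaf1 at 0.30 ± 0.12 and Ifit3 at 0.67 ± 0.27 above WT, and Herc6 at -0.16 ± 0.06, Isg20 at -0.15 ± 0.05 and Oasl1 at -0.57 ± 0.25 below it. None of these 9 passed the adjusted threshold. Oas1a and Ifit3b did not pass the filter on low counts.

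Kpna6 ΔIBB/ΔIBB was then compared directly with Kpna6-/-, which tests whether the genotypes differ from each other. Of 49 members tested, 12 (24.5%) were called higher in Kpna6 ΔIBB/ΔIBB and 2 (4.08%) lower, against 13.5% and 16.8% of all genes tested. The median log2 difference was 0.24 over the members against 0.00 over all genes tested. Gbp3 was 1.84-fold higher (0.88 ± 0.18, adjusted p = 0.00368) and Ifi27 was higher by 0.58 ± 0.07 (adjusted p = 0.000152), the smallest adjusted p of the members. Stat2 at 0.50 ± 0.09, Bst2 at 0.53 ± 0.13, Oasl2 at 0.56 ± 0.12, Trim25 at 0.41 ± 0.07 and Adar at 0.41 ± 0.07 were also called higher. Ifi35, Ifitm3, Ifih1, Irgm1 and Xaf1 completed the set, with differences from 0.33 to 0.64. Isg20 at -0.54 ± 0.09 and Herc6 at -0.20 ± 0.07 were lower. The count of members called higher was 7 without Kpna6 ΔIBB/ΔIBB replicate 1. Over all genes the higher calls fell as well in that fit, from 2524 of 18752 tested to 1837 of 19034. The call of Irgm1 was lost without any 1 of the 6 samples, that of Xaf1 in 5 of these 6 fits, those of Ifih1 and Herc6 in 4, that of Ifi35 in 3 and that of Ifitm3 in 2. Herc6 is the lower call that was lost without Kpna6 ΔIBB/ΔIBB replicate 1 or 2 or Kpna6-/- replicate 2 or 3, and its groups overlapped in CPM. The median was 0.13 without Kpna6-/- replicate 1.

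Signal transduction upstream of the members was read next. The 28 receptors, kinases, adaptors and transcription factors of the interferon pathway were all tested, with a median of 0.23 in Kpna6 ΔIBB/ΔIBB against WT. There 13 were called higher (46.4%, against 17.7% of all genes tested) and 2 lower (7.14%, against 18.9%). Among those with the smallest adjusted p were the kinases Jak1 (0.47 ± 0.05) and Jak2 (0.64 ± 0.09), the transcription factor Stat3 (0.58 ± 0.07), and Mavs (0.50 ± 0.10), the mitochondrial adaptor to which RIG-I and MDA5 signal. The receptor subunits Ifnar1, Ifnar2, Ifngr1, Ifngr2 and Ifnlr1 were called higher as well, with changes from 0.22 to 0.78, while the receptor subunit Il10rb (0.32 ± 0.13, adjusted p = 0.0827) and the kinase Tyk2 (0.01 ± 0.07, adjusted p = 0.919) were not called. Called lower were Socs1 (-0.46 ± 0.12), an inhibitor of the JAK kinases, and Tlr9 (-1.29 ± 0.30), the endosomal sensor of DNA. The receptor subunits, Tyk2, Socs1 and Tlr9 were named after their values were seen. In Kpna6-/- against WT 1 of the 28 was called higher (3.57%, against 0.889% of all genes tested) and 0 lower. In Kpna6 ΔIBB/ΔIBB against Kpna6-/- 9 were higher (32.1%, against 13.5%) and 3 lower (10.7%, against 16.8%).

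A further 65 interferon-induced genes outside the members were counted for comparison. In Kpna6 ΔIBB/ΔIBB against WT 55 of them were tested, with a median of 0.17. Of these, 11 were called higher (20%, against 17.7% of all genes tested) and 5 lower (9.09%, against 18.9%). The 5 with the smallest adjusted p went in both directions. Ly6e, a surface protein that restricts viral fusion, was higher by 1.10 ± 0.11, Mov10, an RNA helicase that restrains retroelements, by 0.45 ± 0.07, and Trim34a, a ubiquitin ligase, by 0.98 ± 0.18. Nlrc5, the activator of major histocompatibility class I genes, fell by 2.16 on the log2 scale (SE 0.14), and Tor1aip1, a protein of the nuclear envelope, fell by 0.35 (SE 0.05). In Kpna6-/- against WT 0 of 54 tested were called by edgeR, where 0.889% of all genes tested were called higher and 0.712% lower. Of the 54, 8 had an unadjusted p below 0.05, as did 2778 of all 18681 genes tested. In Kpna6 ΔIBB/ΔIBB against Kpna6-/- 6 of 54 tested were called higher and 6 lower, with a median of 0.07. These are 11.1% each, against 13.5% and 16.8% of all genes tested.

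Immune cells carry many of the same genes, and their markers were read beside the members. Over all genes tested in Kpna6 ΔIBB/ΔIBB against WT 17.7% were called higher and 18.9% lower. Of 12 macrophage markers 4 were called higher in Kpna6 ΔIBB/ΔIBB against WT, Mrc1, Cd68, C1qa and C1qc, and 1 was called lower, Aif1, with a median of 0.29 over the 12. These 5 were named after their values were seen. The markers summed to 666 to 697 TPM in WT, 583 to 598 in Kpna6 ΔIBB/ΔIBB and 684 to 708 in Kpna6-/-, and none was at 0. Most of each sum was Aif1, at a mean of 603 TPM in WT and 487 in Kpna6 ΔIBB/ΔIBB. Of 9 T and NK cell markers 6 were tested, 1 was called higher and 1 lower, and the sums of 12.6 to 21.0 TPM in WT and 18.1 to 20.5 in Kpna6 ΔIBB/ΔIBB overlapped. Of 6 B and plasma cell markers 4 were tested and 0 were called by edgeR. Of the 4, 1 had an unadjusted p below 0.05, as did 8623 of all 18797 genes tested. The sums were 6.36 to 7.94 TPM in WT and 6.31 to 6.65 in Kpna6 ΔIBB/ΔIBB. In the plasmacytoid dendritic cell list, 1 of 5 was called higher, Bst2, which is itself a member. Which cells of the testis carried the members was not tested.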

How the data were processed

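Total RNA of whole testis was poly(A)-selected and sequenced as paired ends by the authors. The authors deposited, per transcript and sample, an estimated count and a TPM value from kallisto (version 0.45 in the submitters' processing notes; the methods name a later release) against mm10. Both were summed per gene with GENCODE M21, which placed 95301 of 96626 transcripts and at least 99.54% of counts. Rounded gene counts were tested with edgeR 4.0.16 (R 4.3.3; filterByExpr, TMM, quasi-likelihood) for each pair of genotypes, with Benjamini-Hochberg adjustment over all genes tested. The study used sleuth, whose resampled estimates were not used here. CPM were scaled by TMM over all 9 samples. Genes sharing at least 95% identity over 100 bases were found with blastn 2.17.0. Promoter sequences were from RefSeq (GRCm38.p6). The code was tested on simulated data.

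The members, lists and tests were chosen with earlier results of these data known. Values in every sample are given for the 10 called members of at least 1 TPM with the smallest adjusted p per comparison, the most abundant member of each class, and Stat2, Irf7, Irf9, Isg15, Mx1, Mx2, Oas1b and Adar. Alternatives were DESeq2 1.42.0, limma 3.58.1 on log2(TPM + 1) and log2(TPM + 0.1), other scalings and filters, summed near-identical genes and samples left out singly. Depths of 24859751 to 31484692 counts limit the members under 1 TPM. Values of 1 gene of the signalling list are not reported here.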

Additional observations from a re-analysis of the deposited data

Results flagged for a closer look

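In the test of Kpna6 ΔIBB/ΔIBB against Kpna6-/- (edgeR, adjusted p below 0.05), 14 of the 49 members were called. Of the members 24.5% were called higher and 4.08% lower, against 13.5% and 16.8% of all genes tested. Only the share called higher lay above that of all genes. This contrast was fitted on the samples of these mutant genotypes alone, and the WT samples did not enter it. Sensors and signalling genes that differed were Ifih1 (log2 difference 0.41), Oasl2 (0.56), Stat2 (0.50), Trim25 (0.41) and Herc6 (-0.20). Effectors that differed were Ifi27 (0.58), Ifi35 (0.64), Bst2 (0.53), Xaf1 (0.33), Ifitm3 (0.40), Adar (0.41) and Isg20 (-0.54). Among the GTPases, Gbp3 (0.88) and Irgm1 (0.34) differed. Of these 14 calls, 5 were made under all 17 alternatives, those of Trim25, Oasl2, Stat2, Bst2 and Ifi27. Groups of 3 samples are too small for a test of single outlying samples.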

How the results depend on the processing

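Of the 18 calls in Kpna6 ΔIBB/ΔIBB against WT, 9 held under all 17 alternatives and 12 with each sample left out singly. Members called lower numbered 2, but 1 under limma with either pseudocount and 4 with near-identical genes summed. The median of 0.34 was 0.44 with library size only, 0.19 under limma on log2(TPM + 1) and 0.41 on log2(TPM + 0.1). Against Kpna6-/- the lower calls, 2, were 1 with library size only, 1 and 0 under the limma fits and 5 with near-identical genes summed, and the median of 0.24 was 0.34, 0.16, 0.30 and 0.15. Kpna6-/- against WT had 0 calls but 1 without the filter on low counts. Summing near-identical genes, which joins some members to many genes through short matches, turned Xaf1 to -0.13 and Irf9 to -0.11 against WT, and Xaf1 (-0.0940), Irf9 (-0.0918), Ddx58 (-0.0697) and Sp100 (-0.0924) against Kpna6-/-. With matches of at least 200 bases, chosen after seeing the data, Sp100 did not turn, and Xaf1, Irf9 and Ddx58 have no match that long, so nothing was summed with them.

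Samples left out singly gave 11 to 17 members higher and 2 lower against WT (median 0.33 to 0.41), 7 to 11 higher and 1 to 2 lower between the mutants (0.13 to 0.27), and 0 for Kpna6-/- (0.05 to 0.14). Over all genes these fits called 2421 to 3113 higher against WT, where the full fit called 3328. Between the mutants they called 1797 to 2585 higher, where the full fit called 2524. Correlations between samples with the same replicate number ran from -0.04 to 0.09, and those with different numbers from -0.14 to 0.07. These ranges overlap, though the largest value, 0.0855, was of a same-number pair. Pairing by replicate number was thus neither shown nor excluded. The replicate block gave 15 higher and 2 lower, 11 higher and 2 lower, and 0. Over all genes, 48.4% of calls in Kpna6 ΔIBB/ΔIBB against WT were higher, and 70.0% with library size only, 72.6% and 73.2% under limma, where the median of all genes moved by up to 0.11. Against Kpna6-/- these were 44.5%, 71.0%, 75.3% and 75.1%, with a move of up to 0.13. Less the median of all genes, the members' median was 0.33 and 0.33 with library size only, 0.10 and 0.30 under limma against WT, and 0.235 and 0.234, 0.0494 and 0.161 between the mutants, where it was 0.14 with near-identical genes summed. DESeq2 gave an adjusted p to 43 members against WT and called 11 higher and 2 lower, where 2733 and 3305 of all 17628 genes were. Between the mutants it gave an adjusted p to 41 members and called 8 higher and 2 lower, where 1966 and 2834 of 16599 genes were. Low counts limit Isg15, Rsad2, Ifit1 and Oas1a, and nothing here separates a missing change from one too small for this depth.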
